A study of Mus musculus with 33 samples.

Results

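The FGF-ERK feedback and target genes were 10 genes chosen by name, Spry1, Spry2, Spry4, Spred1, Spred2, Dusp4, Dusp6, Etv4, Etv5 and Fgf4. All 10 were found among the 24391 genes of the count table. Expression was measured by polyA RNA-seq in 2 mouse embryonic stem (ES) cell lines, RepB and WT, both of CAST/Ei x 129/Sv/Jae parentage. The WT line is wildtype. RepB cells carry the genotype RepB, which the labels do not describe further. The study concerns repeats of Xist, the noncoding RNA that coats and silences an X chromosome. Day 0 cells were ES cells kept with LIF and serum on irradiated mouse embryonic fibroblast feeders. For days 5, 6, 7, 8 and 10 the feeders were removed, and cells differentiated in serum without LIF, first as floating embryoid bodies and from day 4 on gelatin. Each line had 1 library per day, 6 RepB and 6 WT libraries in all, and no replicate cultures or second clones are named. The 5 differentiating days therefore served as repeats of a comparison, and p-values describe how steady it was over the days of 1 time course. The chromatin immunoprecipitation samples were not analysed here.

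Total counts per library were 3594551 to 6977752 in RepB cells at days 5 to 10, against 7763633 to 17773138 in WT cells, and 15231930 in RepB cells and 16888957 in WT cells at day 0. Levels are given as CPM, counts relative to the library's total after TMM scaling, and 3 counts in a library stood for 0.164 to 0.889 CPM. The 7 naive ES cell markers were all detected at day 0, and their levels summed to 5372 CPM in RepB cells and 4572 CPM in WT cells. A fibroblast and feeder marker list of 6 genes, all detected, summed to 772 CPM in RepB cells and 646 CPM in WT cells at day 0. Its sum at days 5 to 10 was 49.8 to 13816 CPM in RepB cells and 60.8 to 9118 CPM in WT cells, highest at day 10 in each line. Over these days, for which the feeders were removed, 5 of the 6 genes rose and Thy1 fell (-0.46 ± 0.05 log2 units per day). Which cells gave these later levels was not tested. Xist had 107 CPM in RepB cells and 371 CPM in WT cells at day 0, and 1171 to 1642 CPM in RepB cells and 820 to 1385 CPM in WT cells at days 5 to 10. Since the altered bases are not given in the labels, these Xist levels are no check of the genotype. In bulk samples such as these, fewer cells of a type and less RNA per cell cannot be told apart.

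Fibroblast growth factors (FGFs) bind receptor tyrosine kinases, which act through adaptor proteins and Ras to switch on the kinases RAF, MEK and ERK. Active ERK raises transcription of ETS family factors such as Etv4 and Etv5 and of the pathway's own brakes. These brakes are the Sprouty and Spred proteins, which act between receptor and RAF, and dual-specificity phosphatases, which remove phosphate from ERK. In mouse ES cells Fgf4 is the main FGF made by the cells themselves, and FGF-ERK signalling is needed for them to leave the naive state.

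Promoter sequences are shown for the ligand Fgf4, for both listed starts of the ETS factor Etv5 and for the phosphatase Dusp6, because Fgf4 and Etv5 stand for the courses below day 0 and Dusp6 for the course with a peak at day 6. They run 5′ to 3′ on the gene's strand, from 250 bases before to 50 bases after the start, and come from RefSeq for the build GRCm38.p6. Capitals mark GGAA, the core that ETS factors bind, and its reverse complement TTCC. The windows are chr7:144861136-144861435 (plus strand) for Fgf4, chr16:22438319-22438618 and chr16:22439521-22439820 (minus strand) for Etv5, and chr10:99262981-99263280 (plus strand) for Dusp6.
Fgf4: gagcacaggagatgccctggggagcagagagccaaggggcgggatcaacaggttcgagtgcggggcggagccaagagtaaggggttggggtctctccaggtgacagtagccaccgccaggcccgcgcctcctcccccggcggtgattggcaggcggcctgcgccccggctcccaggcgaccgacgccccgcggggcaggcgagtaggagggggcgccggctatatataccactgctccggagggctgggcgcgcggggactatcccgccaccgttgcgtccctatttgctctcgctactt
Etv5, start with the lower coordinates: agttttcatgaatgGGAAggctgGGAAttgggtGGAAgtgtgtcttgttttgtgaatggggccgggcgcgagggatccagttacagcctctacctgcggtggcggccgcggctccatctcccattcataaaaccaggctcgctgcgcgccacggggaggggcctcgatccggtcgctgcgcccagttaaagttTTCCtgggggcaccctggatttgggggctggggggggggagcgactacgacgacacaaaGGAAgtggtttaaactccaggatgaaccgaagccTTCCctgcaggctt
Etv5, start with the higher coordinates: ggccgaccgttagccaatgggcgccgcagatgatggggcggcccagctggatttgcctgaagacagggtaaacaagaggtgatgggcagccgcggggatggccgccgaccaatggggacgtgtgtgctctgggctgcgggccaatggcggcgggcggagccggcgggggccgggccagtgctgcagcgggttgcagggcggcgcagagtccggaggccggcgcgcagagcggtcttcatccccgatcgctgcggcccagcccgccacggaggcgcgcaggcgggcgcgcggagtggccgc
Dusp6: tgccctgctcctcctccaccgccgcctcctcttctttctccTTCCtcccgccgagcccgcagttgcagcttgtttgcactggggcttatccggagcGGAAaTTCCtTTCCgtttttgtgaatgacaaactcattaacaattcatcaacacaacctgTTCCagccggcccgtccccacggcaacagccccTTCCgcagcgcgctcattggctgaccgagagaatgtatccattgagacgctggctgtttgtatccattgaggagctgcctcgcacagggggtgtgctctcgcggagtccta

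RefSeq promoters were used for 7 of the 10 members, as 8 windows. Member windows on chromosome 18, where Spry4 lies, were left out of the search, and none was matched for Dusp4 or Etv4. GGAA or TTCC occurred 6 times in the Dusp6 window, 6 times and 0 times in the Etv5 windows, 0 times in that of Fgf4, 7 times in Spred2, 5 times each in Spred1 and Spry2, and 1 time in Spry1. The median over 32851 mouse promoter windows was 3, and 96.0% of them held at least 1 such core. Longer motifs were searched for on both strands. The ETS motif CCGGAAG, which holds the core GGAA, was in 8.86% of all windows, the Capicua motif TGAATGNA in 3.82%, the AP-1 motif TGANTCA in 7.81% and the serum response element, or CArG box, in 1.63%, and 0 of the 8 member windows held any of the 4. These counts describe letters in a short window and say nothing of binding.

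The members followed 3 kinds of course. Fgf4, Etv4, Etv5 and Spry4 were highest in ES cells, and in both lines each of the 5 differentiating days lay below day 0. Dusp4, Dusp6 and Spry1 lay above day 0 on each of the 5 days in both lines, with tops at day 6 or 7 for Dusp4, day 6 for Dusp6 and day 8 for Spry1. For Spry1 in RepB cells, day 6 was only 1.03-fold of day 0, within counting error. Spred1, Spred2 and Spry2 had days on either side of day 0 in at least 1 line.

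**Figure D1:**
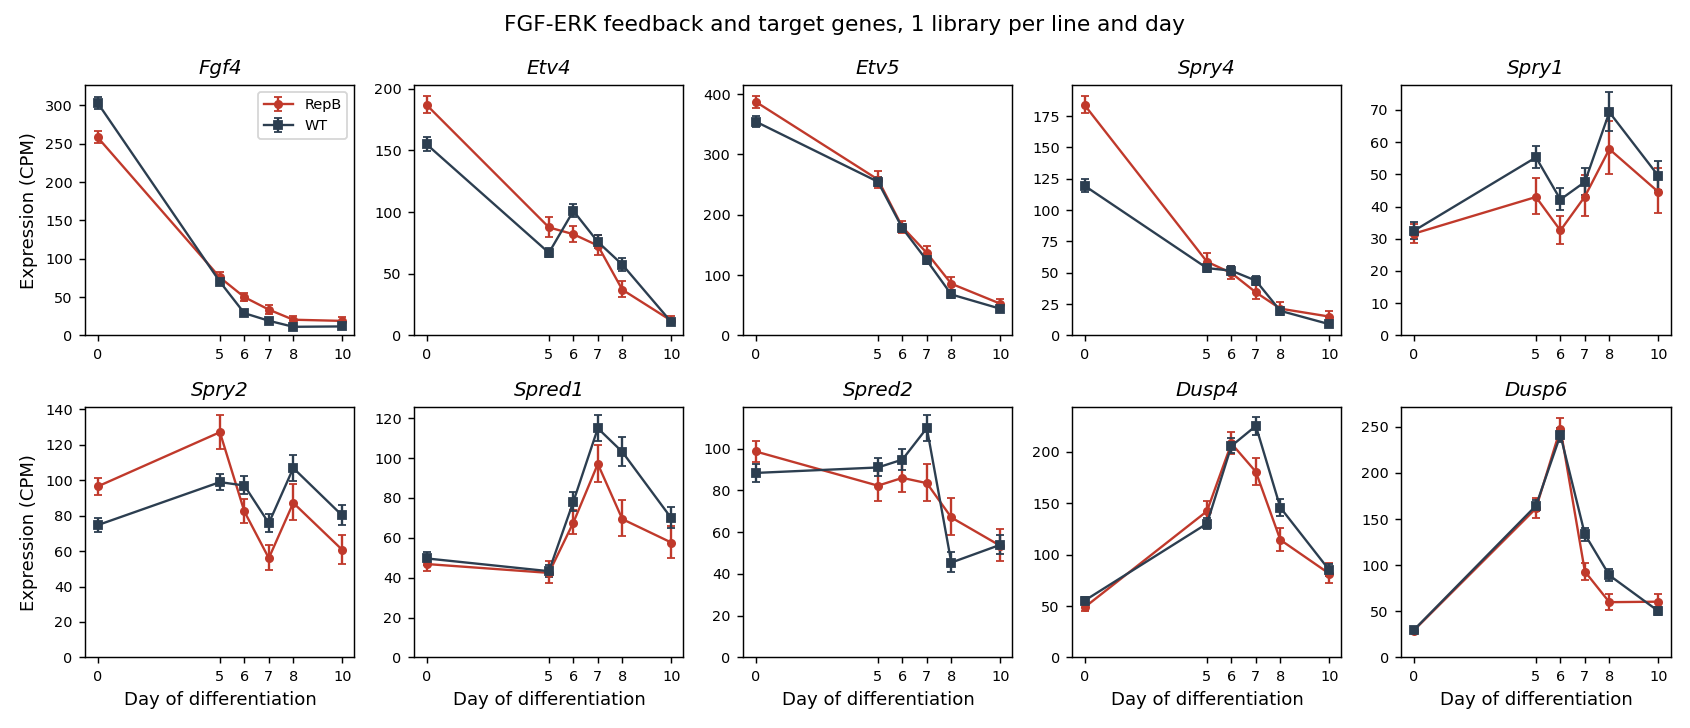
Level of each member in CPM against the day of differentiation, with RepB as circles and WT as squares, 1 library per point, and bars for the exact 95% Poisson interval of the count. Fgf4, Etv4, Etv5 and Spry4 stand highest at day 0, Dusp6 peaks at day 6 in both lines, and the lines run close together in most panels.

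Fgf4, the ligand, lies on chromosome 7. RepB cells had 258 CPM of Fgf4 at day 0 and 75.6, 49.9, 33.6, 20.5 and 18.9 CPM at days 5, 6, 7, 8 and 10. WT cells had 303 CPM at day 0 and 70.0, 29.0, 19.1, 11.2 and 11.7 CPM on the same days. All 5 differentiating days were below day 0 in both lines, and day 8 stood 12.6-fold below day 0 in RepB cells and 27.03-fold below in WT cells. Days 5 to 10 against day 0, tested with edgeR's quasi-likelihood test against the spread between days, gave a log2 difference of -2.70 ± 0.81 in RepB cells (adjusted p = 0.0861) and -3.42 ± 0.79 in WT cells (adjusted p = 0.0253). Fgf4 thus fell past the threshold in WT cells, and this call ended without day 6 (adjusted p = 0.0766), day 7 (0.0945) or day 8 (0.0598). Within days 5 to 10, Fgf4 fell in both lines together by 0.47 ± 0.07 log2 units per day (adjusted p = 0.000286).

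Etv5 is an ETS factor on chromosome 16 that is transcribed in response to ERK. Its level was 387 CPM at day 0 and 258, 179.6, 137, 85.7 and 52.6 CPM at days 5, 6, 7, 8 and 10 in RepB cells. In WT cells it was 355 CPM at day 0 and 255, 178, 124, 67.9 and 44.2 CPM on those days. Etv5 was lower at each later day in both lines and ended 7.36-fold below day 0 in RepB cells and 8.01-fold below in WT cells. Its slope over days 5 to 10 was -0.49 ± 0.03 log2 units per day (adjusted p = 2.85e-06), the smallest adjusted p of the 10 members. The difference of days 5 to 10 from day 0 did not pass against the spread between days, at -1.44 ± 0.80 in RepB cells (adjusted p = 0.322) and -1.41 ± 0.81 in WT cells (adjusted p = 0.287).

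Etv4, the related ETS factor on chromosome 11, had 187 CPM at day 0 and 87.6, 82.0, 72.8, 37.1 and 11.97 CPM at the 5 later days in RepB cells. WT cells had 155 CPM at day 0 and 67.0, 101, 75.8, 57.4 and 10.9 CPM at the later days. Day 10 was 15.6-fold below day 0 in RepB cells and 14.2-fold below in WT cells, while day 8 was 5.04-fold below in RepB cells and 2.70-fold below in WT cells. Etv4 fell by 0.56 ± 0.10 log2 units per day over days 5 to 10 (adjusted p = 0.00113). Without day 10 the slope was -0.25 and the call ended (adjusted p = 0.0808).

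Spry4 is a Sprouty protein gene on chromosome 18. Its level in RepB cells was 184 CPM at day 0 and 58.8, 49.8, 34.3, 21.3 and 15.0 CPM at days 5, 6, 7, 8 and 10. WT cells had 119.4 CPM at day 0 and 53.7, 51.7, 43.7, 19.6 and 8.95 CPM. Each later day was lower than the one before it in both lines. The slope was -0.48 ± 0.06 log2 units per day (adjusted p = 5.73e-05). Against day 0 the difference was -2.35 ± 0.75 in RepB cells (adjusted p = 0.0997) and -1.75 ± 0.77 in WT cells (adjusted p = 0.172).

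Spry1, on chromosome 3, codes for a Sprouty inhibitor of Ras-ERK signalling. It had 31.6 CPM at day 0 and 43.0, 32.6, 43.1, 57.8 and 44.5 CPM later in RepB cells. WT cells had 32.4 CPM at day 0 and 55.3, 42.2, 47.6, 69.3 and 49.5 CPM later. Both lines dipped at day 6 and topped at day 8, at 1.83-fold the day 0 level in RepB cells and 2.14-fold in WT cells. No linear slope was called (0.05 ± 0.05 per day, adjusted p = 0.414).

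Spry2, on chromosome 14, is a further Sprouty gene. RepB cells had 96.4 CPM at day 0 and 127, 82.3, 56.0, 87.2 and 60.7 CPM at days 5, 6, 7, 8 and 10. WT cells had 74.6 CPM at day 0 and 98.9, 96.9, 75.7, 107 and 80.1 CPM. The up and down steps had the same sign in both lines at 5 of 5 steps, with lows at day 7 and higher levels again at day 8. The slope was -0.10 ± 0.05 per day (adjusted p = 0.112).

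Spred1, on chromosome 2, and Spred2, on chromosome 11, code for Sprouty-related proteins that hold back Ras and RAF. Spred1 had 46.8 CPM at day 0 and 42.4, 67.6, 97.0, 69.4 and 57.6 CPM at the later days in RepB cells, against 49.7 CPM and 43.2, 78.1, 115, 103 and 69.9 CPM in WT cells. It topped at day 7 in both lines, at 2.07-fold the day 0 level in RepB cells and 2.31-fold in WT cells. Its slope of 0.08 ± 0.09 per day was not called (adjusted p = 0.461), but without day 10 it was 0.36 (adjusted p = 0.0213). Spred2 had 98.6 CPM at day 0 and 82.2, 86.0, 83.4, 67.0 and 53.5 CPM later in RepB cells, against 88.3 CPM and 90.9, 94.7, 109.8, 45.4 and 53.9 CPM in WT cells. Spred2 was the flattest member in RepB cells, with a 1.61-fold range over days 5 to 10, and its steps had the same sign in both lines at 2 of 5 steps. Its slope of -0.17 ± 0.05 per day passed (adjusted p = 0.0211), and the call ended without day 6 (adjusted p = 0.0538) or day 10 (adjusted p = 0.212).

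Dusp6 is a cytoplasmic phosphatase specific for ERK and lies on chromosome 10. RefSeq has the gene Gm34921, which the count table does not list, overlapping it. RepB cells had 29.1 CPM at day 0 and 161, 248, 93.1, 59.9 and 60.4 CPM at days 5, 6, 7, 8 and 10. WT cells had 29.6 CPM at day 0 and 164, 241, 133, 89.0 and 50.3 CPM. The peak at day 6 stood 8.52-fold above day 0 in RepB cells and 8.15-fold above in WT cells. From that peak Dusp6 fell over the later days, and the slope over days 5 to 10 was -0.41 ± 0.08 per day (adjusted p = 0.00143). Averaged over days 5 to 10 the difference from day 0 was 2.10 ± 0.99 in RepB cells (adjusted p = 0.245) and 2.20 ± 1.00 in WT cells (adjusted p = 0.185).

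Dusp4, on chromosome 8, is a nuclear phosphatase that acts on ERK. Its level was 48.8 CPM at day 0 and 142, 208, 181, 114 and 81.6 CPM later in RepB cells. In WT cells it was 55.3 CPM at day 0 and 130.2, 206, 225, 146 and 85.0 CPM later. The top came at day 6 in RepB cells, 4.26-fold above day 0, and at day 7 in WT cells, 4.07-fold above. Its slope was -0.20 ± 0.07 per day (adjusted p = 0.0364). That call ended without day 6 (adjusted p = 0.112), day 8 (0.0798) or day 10 (0.87), and with log2 of the day in place of the day (0.0758).

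Counted over the list, days 5 to 10 against day 0 called 0 of 10 members in RepB cells and 1 of 10, Fgf4, in WT cells by edgeR's quasi-likelihood test. In RepB cells 3 members had an unadjusted p under 0.05, and DESeq2 called 2, Dusp4 (adjusted p = 0.0471) and Fgf4 (adjusted p = 0.0401). The background over 15179 genes was 1.75% called higher and 3.03% lower in RepB cells, and 3.89% higher and 6.15% lower in WT cells. A fit with day as a factor, whose spread is that left between lines within a day, called 8 of 10 members in each line, all but Spry2 and Spred2. It also called 47.5% of all genes in RepB cells and 55.0% in WT cells, so which spread is used decided most of these calls. In it Spry1, Spred1, Dusp4 and Dusp6 were above day 0 and Spry4, Etv4, Etv5 and Fgf4 below in both lines, with log2 differences in RepB cells of 1.88 for Dusp6 (adjusted p = 4.5e-05) and -2.92 for Fgf4 (adjusted p = 1.04e-07).

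Within days 5 to 10, 7 of 10 members fell with day and 0 rose, where 26.6% of 12948 genes were called lower and 27.9% higher. The median slope of the members was -0.31 per day, beside 0.00063 over all genes. With the 5 days taken as separate levels, a test added after seeing that some members peak within the course, 10 of 10 members were called, beside 62.4% of all genes. Adjusted p-values ran from 7.38e-07 for Etv5 to 0.0178 for Spry2, and the call for Spry2 ended without day 7 (adjusted p = 0.0598) or day 10 (adjusted p = 0.05). Slopes did not differ past the threshold between the lines for any of the 10 members. By edgeR's quasi-likelihood test 0% of all genes were called, 200 genes had an unadjusted p under 0.05, and DESeq2 also called 0.

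Between the lines, Fgf4 was the 1 member called over days 5 to 10, and it was higher in RepB cells. It averaged 39.7 ± 23.6 CPM in RepB cells and 28.2 ± 24.4 CPM in WT cells (SD, n = 5 days each), so the ranges of the lines overlapped across days. Day by day, Fgf4 was higher in RepB cells on 5 of 5 days, by 0.11, 0.77, 0.80, 0.84 and 0.67 log2 units at days 5, 6, 7, 8 and 10. At day 0 it was lower in RepB cells, by -0.23. The fitted difference was 0.62 ± 0.12, a 1.53-fold excess in RepB cells (edgeR's quasi-likelihood test, adjusted p = 0.0244), in a comparison that called 2.28% of 15179 genes. The call ended without day 6 (log2 difference 0.56, adjusted p = 0.117), day 7 (0.57, adjusted p = 0.133) or day 10 (0.61, adjusted p = 0.0808). It also ended with the days not matched between lines (0.49, adjusted p = 1.0). RepB libraries were the shallower ones, and the difference was 0.67 (adjusted p = 0.0424) with all libraries thinned to equal depth.

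Other values also differed between the lines. The naive ES cell marker list was higher in RepB cells on 5 of 5 days, with summed levels of 348 to 1251 CPM in RepB cells and 259 to 867 CPM in WT cells over days 5 to 10. Of its 7 genes, 5 were called higher in RepB cells, among them Nanog (0.56 ± 0.08, adjusted p = 0.00624, and 0.0517 without day 7) and Esrrb (0.83 ± 0.12, adjusted p = 0.00562), both transcription factors of the naive state, calls that ended with no day term (adjusted p = 1.0 for both). The naive list's sum was already higher in RepB cells at day 0, at 5372 CPM against 4572 CPM in WT cells, where Fgf4 was lower. Set against the difference at day 0, 0 of the 7 naive genes were called (4 at an unadjusted p under 0.05 by edgeR). The early neural list, 5 genes, was lower in RepB cells on 5 of 5 days. Its sums were 64.0 to 291 CPM in RepB cells and 86.6 to 300.1 CPM in WT cells. Of its 5 genes, Lhx2, Pax6 and Sox1 were called lower. The blood and endothelium list, 5 genes, was higher in RepB cells on 5 of 5 days, with sums of 89.2 to 519.7 CPM in RepB cells and 68.3 to 379 CPM in WT cells, and Pecam1 was called higher (0.82 ± 0.12, adjusted p = 0.00691). At day 0 this list already summed to 178 CPM in RepB cells and 189 CPM in WT cells. Pecam1 was lower at days 5 to 10 than at day 0 in WT cells (log2 difference -2.21), whereas Cdh5, Hbb-bh1 and Gata1 rose with day over days 5 to 10. The 6 fibroblast and feeder genes had fitted differences above 0 in 6 of 6, with Col3a1 and Postn called higher, and their sum was higher in RepB cells on 4 of 5 days. Ttr, of the endoderm list, was called higher and Sfrp2, of the primed epiblast list, lower, and the ES and epiblast, streak, cardiac and trophoblast lists had 0 genes called. The part of these values in the Fgf4 result was not tested.

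**Figure D2:**
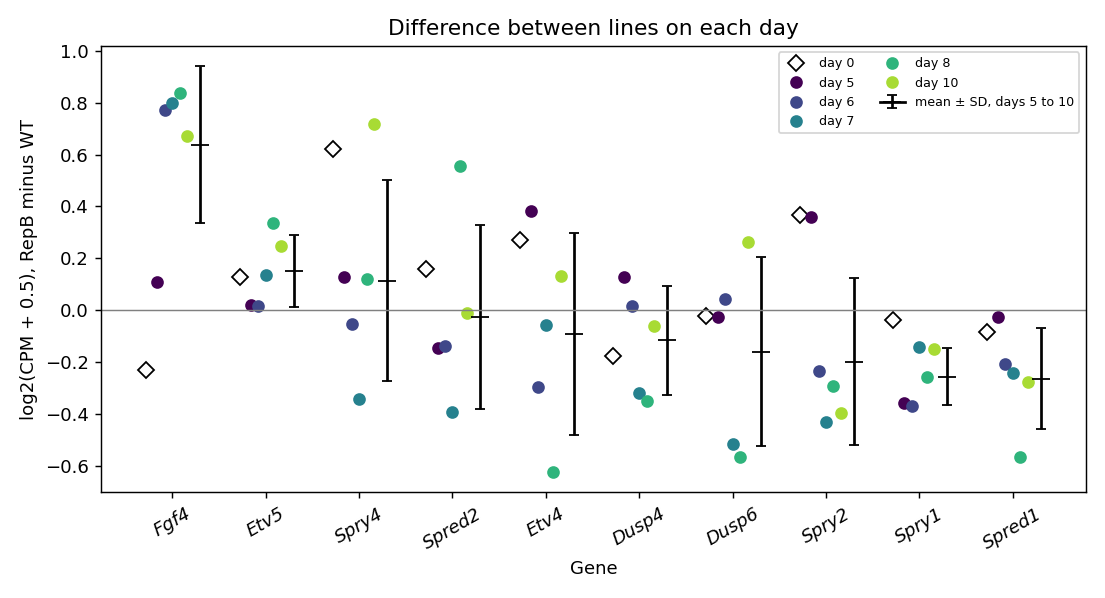
Difference between the lines for each member, as log2(CPM + 0.5) in RepB minus WT cells, on day 0 (diamonds) and on days 5, 6, 7, 8 and 10 (coloured points), with the mean and SD over the 5 differentiating days. Fgf4 and Etv5 lie above 0 on 5 of 5 differentiating days, and Spry1 and Spred1 lie below 0 on 5 of 5.

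None of the other 9 members was called between the lines, and 3 of 10 fitted differences were above 0. By edgeR, Fgf4, Spry1 and Spred1 had an unadjusted p under 0.05, 3 of 10 members beside 2271 of 15179 genes. DESeq2 gave 2 such members. Spry1 averaged 44.2 ± 8.99 CPM in RepB cells and 52.8 ± 10.3 CPM in WT cells (SD, n = 5 days each) and was lower in RepB cells on 5 of 5 days, with a fitted difference of -0.26 ± 0.09 (adjusted p = 0.175 by edgeR). Spred1 averaged 66.8 CPM (range 42.4 to 97.0) in RepB cells and 81.8 CPM (range 43.2 to 115) in WT cells, also lower in RepB cells on 5 of 5 days, at -0.26 ± 0.09 (adjusted p = 0.194). Etv5 was higher in RepB cells on 5 of 5 days, at 0.14 ± 0.08 (adjusted p = 0.468), with a 95% interval of -0.04 to 0.32. The remaining 6 ran from -0.19 for Spry2 (adjusted p = 0.494) to 0.06 for Spry4 (adjusted p = 0.876), with mixed signs over the days. The members' median difference was -0.11, beside -0.0020 over all genes.

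The difference between the lines at days 5 to 10 was also set against that at day 0. It was called for 0 of 10 members, in a comparison that called 0.0329% of 15179 genes, and 1 member had an unadjusted p under 0.05. This member was Fgf4, named after its value was seen, whose excess in RepB cells was 0.85 ± 0.26 larger at days 5 to 10 than at day 0 (adjusted p = 0.385 by edgeR, 0 members called by DESeq2). Spry4 and Spry2 went the other way, each at -0.56. Spry4 had a level 0.62 log2 units higher in RepB cells at day 0 alone, a pair of libraries with no repeat.

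Levels between genes were compared per kilobase of the summed exon length in the count table. At day 0 the order in RepB cells was led by Etv5 at 101, Fgf4 at 85.3 and Etv4 at 80.0 CPM per kilobase, and ended with Dusp6 at 10.4 and Spred1 at 6.61. In WT cells Fgf4 led at 100.1, ahead of Etv5 at 92.8 and Etv4 at 66.3, and Dusp6 at 10.6 and Spred1 at 7.01 again came last. By their means over days 5 to 10 the phosphatases led in both lines. Day by day, though, Dusp6 over Spry2 averaged 0.002 ± 0.80 log2 units in RepB cells and -0.04 ± 0.82 in WT cells. Dusp4 averaged 59.9 ± 20.8 CPM per kilobase in RepB cells and 65.3 ± 23.5 in WT cells (SD over 5 days), and Dusp6 44.5 ± 28.8 in RepB cells and 48.5 ± 26.1 in WT cells. Spry2, Etv5, Spred2, Etv4 and Spry1 followed in that order in both lines. Fgf4 at 13.1, Spred1 at 9.43 and Spry4 at 7.81 closed the order in RepB cells, and Spred1 at 11.6, Fgf4 at 9.31 and Spry4 at 7.74 in WT cells. Of the 9 neighbouring pairs in each line, 1 differed by more than its SD over the 5 days. In RepB cells this was Dusp4 over Dusp6, at 0.58 ± 0.58 log2 units and higher on 4 of 5 days, barely past the SD. In WT cells it was Spry1 over Spred1, at 0.93 ± 0.60 and higher on 5 of 5 days.

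**Figure D3:**
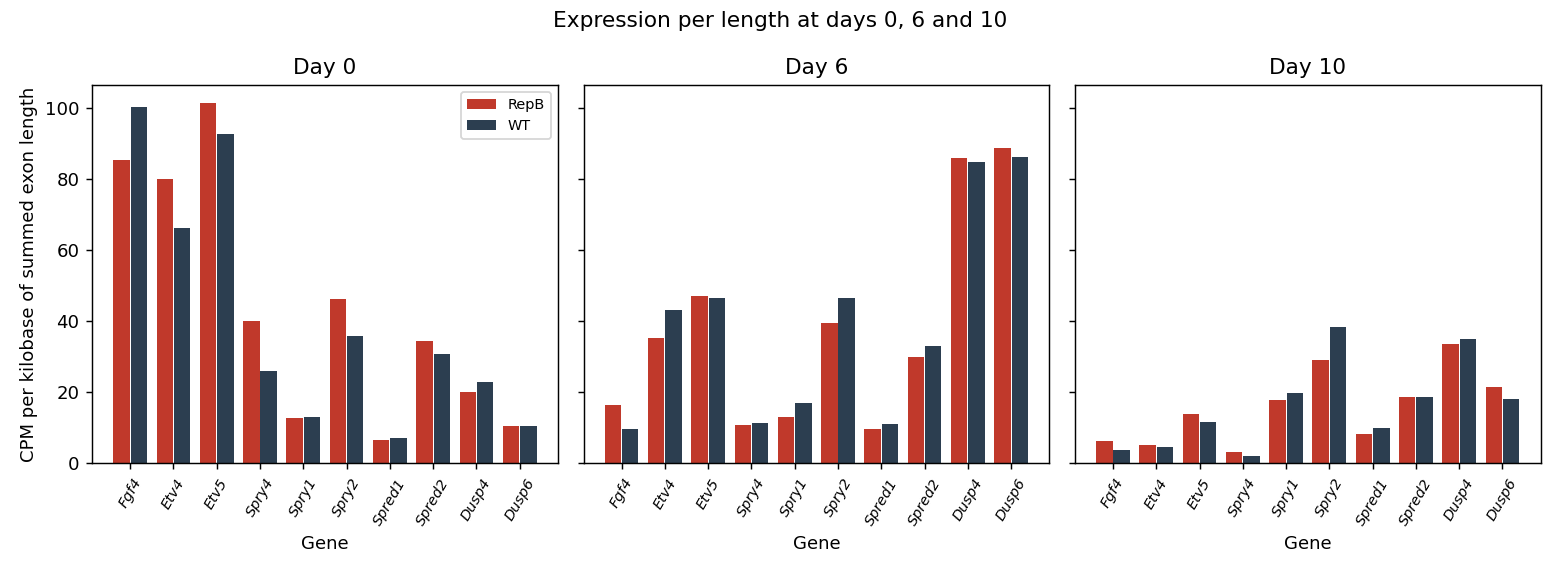
Level per length of each member, in CPM per kilobase of summed exon length, at days 0, 6 and 10, with RepB bars left of WT bars and 1 library per bar. The order turns over between day 0, led by Fgf4, Etv4 and Etv5, and day 6, led by Dusp4 and Dusp6.

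Across the 12 libraries the members did not move as 1 block. Of 45 pairs of members, 29 had a positive and 16 a negative Pearson r of log2(CPM + 0.5), from -0.74 for Spry1 with Fgf4 to 0.97 for Spry4 with Etv5. The 6 pairs over 0.8 were Spry4 with Etv5, Etv4 and Fgf4, Etv5 with Etv4 and Fgf4, and Dusp4 with Dusp6. These values describe 2 time courses that share their days, so the points are not independent. Among 11765 other genes with a mean of at least 4 CPM, the course most like that of Fgf4 was that of Esrrb (r = 0.993), followed by Camk2b (0.991). The nearest genes to Etv5 were Dmd (0.995) and Cbx7 (0.993), and to Etv4 Rabggta (0.990) and Prmt5 (0.978). Spry4 was nearest to Nsf (0.983) and Slc29a1 (0.981), Dusp6 to Fgf5 (0.979) and Mkx (0.977), and Dusp4 to Ctsc (0.985) and Fgf8 (0.984). Spred1 was nearest to Bmper (0.957) and Cxcr4 (0.938), and Spred2 to Rad54l2 (0.969) and Vps13b (0.968). Spry1 with Wbscr27 (0.940) and Scrn2 (0.925), and Spry2 with Commd4 (0.869) and Mepce (0.849), had the weakest likenesses.

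The count table also holds counts assigned to 2 alleles, which its header names cas and mus, and these made up 25.5% to 26.7% of each library's total. Of the 10 members, 2 gave counts from both alleles in quantity. Dusp4 had a cas share of 65.9% (exact 95% binomial interval 63.5% to 68.2%) over the summed counts of days 5 to 10 in RepB cells and 64.8% (63.3% to 66.2%) in WT cells. At day 0 its share was 69.0% in RepB cells and 68.0% in WT cells. Etv4 had 44.8% (39.0% to 50.8%) in RepB cells and 48.0% (44.5% to 51.5%) in WT cells over days 5 to 10. Fgf4 had 5.78% (2.81% to 10.4%) in RepB cells and 4.53% (2.66% to 7.16%) in WT cells, on 173 and 375 allelic counts. Spred2 had 7.21% in RepB cells and 5.65% in WT cells, Etv5 3.96% and 3.30%, and the other 5 members were under 1% in both lines. These intervals cover counting error alone.

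**Figure D4:**
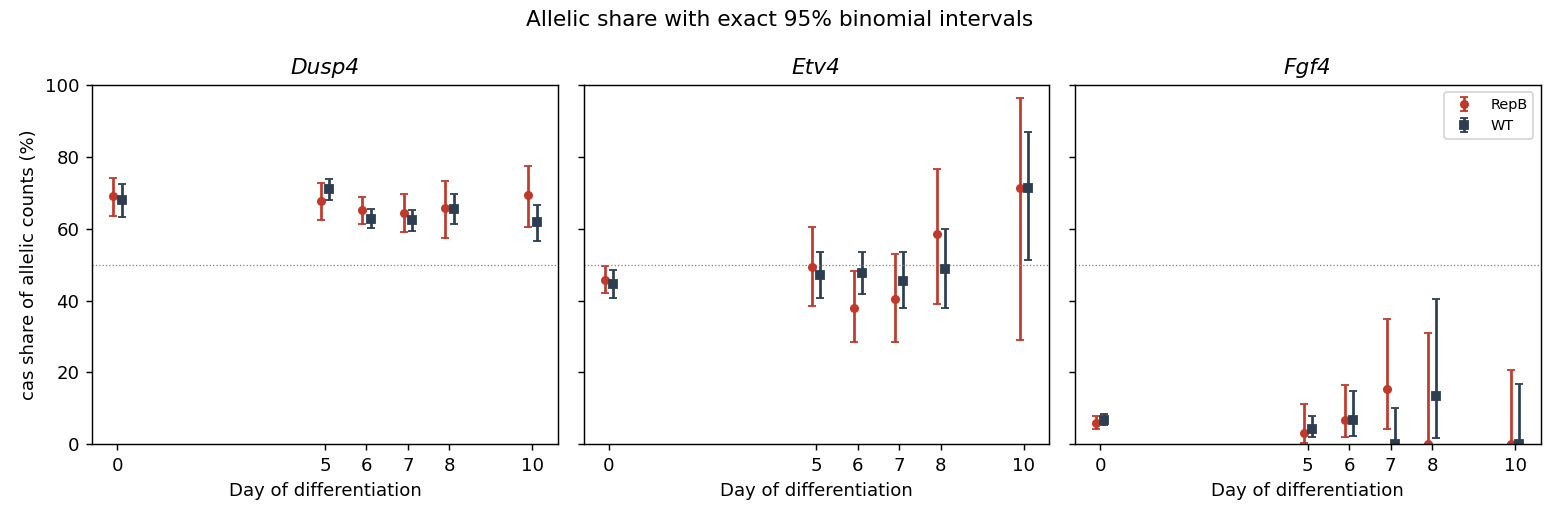
Share of cas counts among cas and mus counts, in percent, for Dusp4, Etv4 and Fgf4 by day, RepB as circles and WT as squares, with exact 95% binomial intervals and a dotted line at 50%. Dusp4 stays between 61.8% and 70.9% in the 12 libraries, and Fgf4 does not pass 15.4% in any.

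A comparison of the lines' shares was possible for the 5 members with shares above 1%. Their log2 differences in the ratio of cas to mus counts ran from -0.15 ± 0.26 for Etv4 to 0.52 ± 0.49 for Spred2, with 0.08 ± 0.14 for Dusp4, and 0 of the 5 were called (edgeR's quasi-likelihood test on allelic counts, adjusted p = 1 for each, 0 with an unadjusted p under 0.05), beside 2.24% of 10332 genes. The other 5 had 0 to 10 cas counts per line summed over days 5 to 10 and standard errors of 1.11 to 1.45, too few counts for the comparison to show a difference. Low cas shares were also common among other genes, although the labels give a hybrid parentage. At day 0, 94.5% to 97.5% of genes with allelic counts on chromosomes 3, 10, 14, 16 and 18, which hold Spry1, Dusp6, Spry2, Etv5 and Spry4, had cas shares under 25%. This held for 57.6% of genes on chromosome 2 and 58.6% on chromosome 11, where Spred1, Spred2 and Etv4 lie, for 45.6% on chromosome 8 with Dusp4, and for 21.8% on chromosome 7 with Fgf4. The Etv4 share at day 10 rested on 7 allelic counts in RepB cells and 28 in WT cells.

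The rest of the pathway was described by 6 lists. Among 14 tested FGF family genes other than Fgf4, 0 were called between the lines by edgeR (2 at an unadjusted p under 0.05, 0 by DESeq2). Over days 5 to 10 Fgf18 rose and 4 of the 9 tested fell, namely Fgf5, Fgf8, Fgf13 and Fgf17. This list goes by gene name, and not every gene on it need code for a secreted ligand. Fgf8, a ligand of gastrulation, was at 217 CPM at day 6 in RepB cells and 206 CPM in WT cells, against 2.33 CPM in RepB cells and 2.40 CPM in WT cells at day 0. Fgf5, a marker of the primed epiblast, topped at 203 CPM on day 5 in RepB cells and 268 CPM on day 6 in WT cells, against 0.130 CPM in RepB cells and 0.446 CPM in WT cells at day 0. Of the 6 tested receptors and co-receptors 0 were called between the lines by edgeR (0 at an unadjusted p under 0.05, 0 by DESeq2), and 4 rose over days 5 to 10. Fgfr1, the most abundant, averaged 499.9 ± 185 CPM in RepB cells and 544 ± 152 CPM in WT cells (SD, n = 5 days each), and Fgfr3 rose by 1.14 ± 0.12 log2 units per day (adjusted p = 3.22e-05 by edgeR) to 131 CPM in RepB cells and 167 CPM in WT cells at day 10.

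Of 9 adaptors and Ras exchange factors, 0 were called between the lines by edgeR (3 at an unadjusted p under 0.05, 1 by DESeq2). Over days 5 to 10, 5 of the 9 rose, with Gab2 the steepest at 0.67 ± 0.06 per day (adjusted p = 2.17e-05 by edgeR). Gab1, an adaptor, was below day 0 at days 5 to 10 in both lines, by -1.09 ± 0.24 in RepB cells (adjusted p = 0.032) and -1.43 ± 0.24 in WT cells (adjusted p = 0.00857), and the RepB call ended without day 6 (0.0843), day 7 (0.116) or day 8 (0.0622). The Ras-RAF-MEK-ERK kinases were flatter, with 2 of 14 higher and 2 lower with day. Araf, an X-linked RAF kinase, was the 1 of 15 called between the lines. It averaged 137 ± 22.9 CPM in RepB cells and 102 ± 9.95 CPM in WT cells and was higher in RepB cells on 5 of 5 days (0.41 ± 0.08, adjusted p = 0.0249 by edgeR). This call ended without day 5 (adjusted p = 0.0545), day 6 (0.0683), day 7 (0.152) or day 10 (0.106), and with no day term (1.0).

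Of 15 genes listed as other feedback inhibitors, 1 was called higher and 1 lower in RepB cells. Dusp9, an X-linked phosphatase of ERK, averaged 336 ± 149 CPM in RepB cells and 235 ± 107 CPM in WT cells, higher in RepB cells on 5 of 5 days (0.50 ± 0.11, adjusted p = 0.0465 by edgeR). Its call ended without day 6 (adjusted p = 0.184), day 7 (0.217) or day 10 (0.173), and with no day term (1.0). Spred3, a relative of Spred1 and Spred2, averaged 24.7 ± 11.3 CPM in RepB cells and 34.2 ± 12.2 CPM in WT cells, lower in RepB cells on 5 of 5 days (-0.49 ± 0.11, adjusted p = 0.0495), and its call ended by DESeq2 (adjusted p = 0.0936), limma-voom (0.0597), DESeq2's size factors (0.0639), at equal depth (0.128), with no day term (1.0) and without day 6 (0.213), day 7 (0.216) or day 10 (0.102). With day, 6 of the 15 listed genes rose and 3 fell. Flrt3 had the steepest rise, at 0.70 ± 0.10 per day. Whether Flrt3 acts as an inhibitor in these cells was not tested, so its rise is not read as that of a brake. Dusp1, an early response phosphatase, was lower than at day 0 by -2.06 ± 0.36 in RepB cells (adjusted p = 0.0135) and -1.91 ± 0.36 in WT cells (adjusted p = 0.0125), calls that ended without day 7 (0.0584 in RepB cells and 0.0511 in WT cells).

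The last list was of 21 other genes grouped as ERK-responsive, a name that does not say how each responds to ERK. Egr1, an immediate early transcription factor, had 1403 CPM at day 0 and 38.7, 34.5, 13.8, 10.1 and 15.6 CPM later in RepB cells, against 1166 CPM and 37.5, 47.8, 25.3, 12.5 and 9.77 CPM in WT cells. Egr1, Egr2, Fos and Elk1 were called lower at days 5 to 10 in both lines, and 0 of 21 were called higher in either line. Egr1 fell by 5.94 ± 0.70 log2 units in RepB cells (adjusted p = 0.00274 by edgeR) and by 5.45 ± 0.70 in WT cells (adjusted p = 0.00303). Dusp6 and Dusp4, by contrast, were above day 0 on each of the 5 differentiating days in both lines. Between the lines 0 of the 21 were called by edgeR (2 at an unadjusted p under 0.05, 0 by DESeq2), and 7 rose and 8 fell with day among 19 tested.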

How the data were processed

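RNA counts per gene came from the authors' deposited count table (whole-number counts, with chromosome, first listed exon and summed exon length), on build mm9 per the submitters' processing notes, which name TopHat, Novoalign, SAMtools, bedtools and featureCounts. Versions, filters and the strand setting of the counting are not given in the sources used here. Libraries were polyA-selected with a directional kit, per the labels' protocols. The deposited counts hold all reads of a gene and those assigned to the cas or mus allele. A further 6 count columns matched none of the 12 RNA libraries and were not used.

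Counts were scaled by TMM and tested with edgeR 4.0.16 (R 4.3.3) quasi-likelihood F tests after filterByExpr, with Benjamini-Hochberg adjustment over all genes tested and a threshold of 0.05. The comparison of lines used day as a factor, with separate line effects at day 0 and over days 5 to 10 (4 residual degrees of freedom, biological coefficient of variation 12.2%). Days 5 to 10 against day 0 used 4 groups of line and stage (8 degrees of freedom, 46.4%). Slopes used the 10 libraries of days 5 to 10 with day as a number (7 degrees of freedom, 22.5%), and the difference of slopes 6 degrees of freedom. Allelic counts were fitted with library, day and line terms for the genes that averaged 20 or more allelic counts per library. Alternatives were DESeq2 1.42.0, limma 3.58.1 voom, other scaling, no filter, equal depth and leaving out days. The scripts were tested on simulated data. Values after ± are standard errors for fitted log2 differences and SDs for means. log2(CPM + 0.5) was used for description. Promoter windows and gene overlaps came from RefSeq tables for GRCm38.p6. No coordinates were converted between builds.

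The members, the pathway and marker lists and the tests were chosen with earlier results of these data known. Named genes were the 10 members, the 4 genes of each pathway list with the highest level per length, those called between the lines, and the 2 genes with the course most like each member. Other genes of the lists that are named were picked after their values were seen.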

Additional observations from a re-analysis of the deposited data

How the results depend on the processing

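The labels carry no replicate numbers, and the lines were paired by day. Of 885 values for single genes under the alternatives, 813 kept their side of the threshold, 45 lost a call, 22 gained one, 0 reversed and 5 values with no test moved by more than the spread. RepB against WT called 346 genes and 1 member. It called 592 genes with no low-count filter, 0 genes and 0 members with no day term, and 38 to 744 genes and 0 to 1 members with 1 day left out. The difference of RepB and WT from that at day 0 called 5 genes, against 14 with no filter, 12 by DESeq2, 1 at equal depth and 0 to 61 with 1 day left out. Days 5 to 10 against day 0 called 725 genes and 0 members in RepB cells, against 1947 genes and 2 members (Dusp4 and Fgf4) by DESeq2 and 7208 genes and 8 members with day as a factor. Leaving out 1 day gave 114 to 1097 genes and 0 to 2 members. In WT cells it called 1524 genes and 1 member, against 2769 genes by DESeq2, 8356 genes and 8 members with day as a factor, and 352 to 2129 genes and 0 to 2 members with 1 day left out. Days as levels called 8082 genes and 5022 to 9137 with 1 day left out. Beyond the construction of each alternative, the cause of these shifts was not tested. For Fgf4 between the lines, counts of 68 and 69 in the shallowest RepB libraries limit precision.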

Other observations

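Allelic shares were also taken for the genes around each member. Among genes within 2 Mb of the member with at least 40 allelic counts at day 0, summed over the lines, the 19 neighbours of Dusp4 had a median cas share of 67.2% and 15 of them lay between 25% and 75%. The 94 neighbours of Etv4 had a median of 49.1%, with 88 in that range. Around Fgf4, 19 genes had a median of 0.400%, and 0 were in the range, while Fgf4 itself stood at 6.38%. Spred2 stood at 4.12% beside a median of 1.07% over 12 neighbours, and Etv5 at 2.42% beside 0.309% over 31 neighbours. The medians were 1.83% over 14 neighbours of Spry1, 0% over 5 of Spry2, 0.955% over 29 of Spry4, 0.457% over 15 of Spred1 and 2.16% over 6 of Dusp6, where the members stood at 2.67%, 0.588%, 0%, 0% and 0.389%.

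Myc, a growth regulator among the other ERK-responsive genes, differed between the lines at day 0 more than at days 5 to 10. It had 41.5 CPM in RepB cells and 15.2 CPM in WT cells at day 0. At days 5, 6, 7, 8 and 10 it had 73.2, 115, 165, 103 and 35.1 CPM in RepB cells and 78.2, 122, 201, 142 and 39.0 CPM in WT cells. The RepB minus WT difference at days 5 to 10 less that at day 0 was -1.66 ± 0.22 on the log2 scale (adjusted p = 0.0303 by edgeR's quasi-likelihood test), and day 0 has 1 library per line. The call ended without day 5 (adjusted p = 0.0681), day 7 (0.159) or day 10 (0.116) and with all libraries thinned to equal depth (0.122).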
